A study of Rattus norvegicus and synthetic construct with 4 samples.

Results

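The elements described here are human pancreatic islet CAGE elements from the zinc finger gene clusters of chromosome 19. They were chosen by position, as counted elements whose midpoint lies in 1 of 8 windows of chromosome 19 (hg19, as are all coordinates here). The windows were chosen with earlier results of these data known. The windows run from 2.8 to 3 Mb, 9.2 to 9.9 Mb, 11.7 to 12.7 Mb, 19.7 to 24.5 Mb, 36.7 to 38.3 Mb, 44.3 to 45 Mb, 52.3 to 54 Mb and 56 to 58.85 Mb. They held 58 of the 3378 counted elements, and the remaining 148 counted elements of chromosome 19 served for comparison. Members numbered 1, 6, 3, 23, 6, 3, 3 and 13 in the windows in that order. An hg19 annotation was not used here, so the elements are named by position, and whether a given element lies at a zinc finger gene was not tested.

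Zinc finger clusters hold long tandem arrays of related genes, most of which encode DNA-binding proteins with a KRAB domain. That domain recruits a corepressor, and many of these proteins silence transposable elements. In the genome the clusters themselves often carry repressive chromatin, while the gene promoters within them are commonly open. A transfected plasmid does not bring the native chromatin with it, so the assay reads the element's sequence in a reporter.

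CAGE maps the 5' ends of transcripts, and 7188 islet elements of 198 bp were designed from it, each synthesized in an oligonucleotide of 230 bp between anchors of 16 bp. In STARR-seq each plasmid carries a candidate element that drives its own transcription, so the RNA made, relative to the plasmid DNA, measures the element's activity. The tested material was RNA from 3 replicate electroporations of INS1 832/13 cells, a rat insulinoma line used as a beta cell model, taken 24 h after 10 ug of plasmid library was electroporated. It was set against 1 library of the input plasmid DNA. The cells are of rat origin and the elements of human origin. All replicates received the same plasmid library, whose random barcodes of 16 bases each mark a separately made plasmid.

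The RNA libraries held 211117, 197554 and 218571 counts in replicates 1 to 3, against 1079728 counts in the plasmid DNA. Activity is given as RNA over plasmid DNA after TMM normalization, in units of the centre of the library, so that 1 is the centre and not a measured baseline. An element was called when edgeR's quasi-likelihood test gave a Benjamini-Hochberg adjusted p under 0.05 over all 3378 elements. With 1 DNA library, SDs are over 3 RNA libraries and hold no error of the DNA.

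The strongest and the weakest member with at least 5 barcodes show what a high and a low element look like plasmid by plasmid. Their barcodes are printed whole, 5' to 3' as the deposited table writes them, ordered by plasmid DNA count. Capitals are not used because the barcodes are random and no base of them stands out. H1 to H6 are the 6 barcodes of the strongest member, chr19:37825473-37825670, and L1 to L6 are the 6 of the weakest, chr19:12662185-12662382. The human sequence of the elements was not used here.
H1: gataaagatctgttaa
H2: ttagttcagtatccct
H3: gtgtaagccggcccga
H4: ttattgtcctcacttc
H5: tagtcggccatttctg
H6: ggggtgttcggtggga
L1: taacgtgaaagagctc
L2: gtatatgaggagatag
L3: tatatggctcagtgca
L4: aaggagcaactttgaa
L5: tgctaatacccaaagt
L6: tcacctttagtcgacc

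All 6 counted barcodes of the strongest member, out of 7 paired, had RNA counts. The count table lists no barcode without RNA, so this alone does not set the element apart. H1 gave 41, 34 and 30 RNA counts against 39 plasmid DNA counts. H5 gave 23, 49 and 31 RNA counts against only 11 plasmid DNA counts. H2 was missing from replicate 2, with 20, 0 and 47 RNA counts against 23 in the DNA, and the other 5 barcodes were detected in all 3 RNA libraries. H3 gave 10, 22 and 25 RNA counts against 17 in the DNA, H4 gave 8, 1 and 14 against 14, and H6 gave 17, 3 and 3 against 10. No barcode carried the element by itself, since the top barcode held 27.8% of its RNA counts and its pooled ratio was 10.4 times the centre without that barcode, against 9.52 with it.

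The plasmids of the weakest member were present in the DNA and almost silent in the RNA. L1 had 0, 0 and 1 RNA counts against 50 plasmid DNA counts. L2 and L5 each had 3, 0 and 0 RNA counts, against 27 and 23 in the DNA. L3 had 1, 0 and 0 against 27, L4 had 0, 1 and 0 against 26, and L6 had 0, 1 and 0 against 11. Each of the 6 barcodes was therefore seen in 1 RNA library only, and together they gave 10 RNA counts. A barcode is listed only if it has an RNA count, so plasmids of this element without any RNA were not analysed here.

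By the typical element, the zinc finger clusters sat close to the rest of chromosome 19. By their summed counts they sat lower, but not on average over the libraries once the largest window was left out. Of the 58 members, 5 (8.62%) were called above the centre and 0 below, against 20 of the 148 other chromosome 19 elements (13.5%) above and 0 below. Over all elements tested, 8.88% were called above and 0% below, so the members' share is near that background. On simulated data the test called 0 of 50 elements lowered to 0.25-fold. A count of 0 below therefore does not show that no member is low. The simulated elements were drawn at random from all elements, so members with many barcodes were not simulated as a group. At an unadjusted p under 0.05, 7 members lay above and 1 below in edgeR's quasi-likelihood test. With limma-voom, 11 members were called above and 3 below, and with DESeq2 8 above and 0 below, with 17 members left without an adjusted p. With library totals in place of TMM, edgeR called 3 above and 2 below. Over all 3378 elements, limma-voom called 511 above and 136 below, and DESeq2 419 above and 0 below. Library totals gave 169 above and 50 below over all elements. Without adjustment, 457 of all elements lay above and 26 below at p under 0.05 in edgeR.

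The median member had a log2 ratio of 0.25 (1.19 times the centre), against 0.20 (1.15 times) for other chromosome 19 elements and -0.03 for all elements. The middle of the distribution, from the lower to the upper quartile, spanned -0.53 to 0.91 in members and -0.51 to 1.17 in other chromosome 19 elements. In the single RNA libraries the members' median minus that of the others was 0.10, 0.08 and -0.20 on the log2 scale (mean -0.01 ± 0.17, SD, n = 3). The difference therefore changed sign between libraries and was smaller than its spread. Sums over elements, in which elements with many plasmids weigh most, were further apart. The members made up 1.85% ± 0.0896 of RNA counts (SD, n = 3) and 2.38% of plasmid DNA counts, against 4.80% ± 0.0986 and 4.24% for the other chromosome 19 elements. Their pooled RNA over DNA was 1.25, 1.34 and 1.30 times the centre in replicates 1 to 3, against 1.91, 1.88 and 1.86 times for the others, so the members were lower in each library. This did not hold without the window from 19.7 to 24.5 Mb, a split made after the values were seen. The remaining 35 members were at 1.85, 2.14 and 1.99 times, below the other chromosome 19 elements in replicate 1 only. Their median log2 ratio was 0.78. All elements pooled gave 1.67 ± 0.0243 times (SD, n = 3), so 1 is not the ordinary value on this pooled measure. Barcodes with at least 5 RNA counts made up 20.5% ± 0.864 of the members' barcodes, against 25.9% ± 0.287 of the others' (SD, n = 3).

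Log2 ratios ran from -2.55 to 3.24 in members, against -4.13 to 4.46 in other chromosome 19 elements. Within 2-fold of the centre lay 38 members (65.5%), against 86 of the others (58.1%) and 57.3% of all elements. Outside the 19.7 to 24.5 Mb window the share was 48.6% of 35 members. Ratios above the centre in 3 of 3 RNA libraries were found for 23 members (39.7%), against 45 of the others (30.4%). Over all elements this share was 25.8%. Ratios below the centre in 3 of 3 libraries were found for 15 members (25.9%) and 33 of the others (22.3%), with 29.4% over all elements. These are counts over elements and were not tested as differences.

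The 5 called members came from 3 windows, those starting at 9.2, 36.7 and 52.3 Mb. The window starting at 36.7 Mb held the 2 highest, whose starts lie 16736 bp apart. chr19:37825473-37825670 was at 8.94, 8.57 and 11.0 times the centre, from 119, 109 and 150 RNA counts against 114 plasmid DNA counts. All 3 libraries were far above 1 (log2 3.24 ± 0.64, SE; adjusted p 6.48e-05, edgeR). Its neighbour chr19:37808737-37808934 was at 5.93, 10.9 and 9.70 times the centre, from 126, 221 and 212 RNA counts against 182 in the DNA on 8 barcodes. Replicate 1 was the lowest of its 3 libraries, and the log2 ratio was 3.14 ± 0.52 (SE; adjusted p 1.77e-06, edgeR). All 8 barcodes of this neighbour were detected in more than 1 RNA library.

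In the window starting at 52.3 Mb, chr19:53030842-53031039 was at 5.07, 3.90 and 4.90 times the centre over 12 barcodes, from 197, 145 and 196 RNA counts against 333 in the DNA. The 3 libraries lay close together, and the log2 ratio was 2.21 ± 0.48 (SE; adjusted p 0.000333, edgeR).

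The window starting at 9.2 Mb held the 2 weakest calls, both with more plasmids behind them. chr19:9250997-9251194 was at 2.49, 2.38 and 3.79 times the centre over 16 barcodes, with replicate 3 above the other two (log2 1.53 ± 0.48, SE; adjusted p 0.0238, edgeR). chr19:9731806-9732003 was at 2.77, 2.77 and 2.31 times over 23 barcodes (log2 1.39 ± 0.41, SE; adjusted p 0.0161, edgeR). Neither of these was called without RNA replicate 2 or without RNA replicate 3, with library totals in place of TMM, or with RNA counts of 1 to 4 per barcode taken as 0. Without replicate 2 the adjusted p was 0.125 at 9250997 and 0.130 at 9731806, and without replicate 3 it was 0.229 and 0.0564 (edgeR). The 3 higher members were called whichever RNA library was left out. With RNA counts of 1 to 4 taken as 0 the adjusted p at 53030842 was 0.112, and with only barcodes of at least 20 plasmid DNA counts it was 0.0650 at 37825473 and 0.318 at 9250997 (edgeR).

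Close to the threshold, chr19:37288349-37288546 in the window starting at 36.7 Mb was at 5.31, 6.04 and 4.0 times the centre over 6 barcodes. All 3 libraries were well above 1, at log2 2.35 ± 0.81 (SE; adjusted p 0.0525, edgeR). With DESeq2 its adjusted p was 0.00184. The window starting at 44.3 Mb had 3 members, each above the centre in 3 of 3 libraries. edgeR called none of them (1 lay above at an unadjusted p under 0.05), DESeq2 called 1 and limma-voom 2. chr19:44669172-44669369 was at 2.78, 2.99 and 6.62 times (log2 2.04 ± 0.97, SE; adjusted p 0.285, edgeR), and 1 of its 5 barcodes held 64.7% of its RNA counts. chr19:44860721-44860918 was at 2.80, 3.10 and 2.33 times over 9 barcodes (log2 1.45 ± 0.80, SE; adjusted p 0.453, edgeR). The third, starting at 44439321, was at 3.07, 2.87 and 2.61 times on 4 barcodes.

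The window from 19.7 to 24.5 Mb was the largest, with 23 members, and its values were low and close together. edgeR called none of its members in either direction, and none reached 2 times the centre. At an unadjusted p under 0.05, 0 lay above and 1 below, DESeq2 called 0, and limma-voom called 2 above and 2 below. Its log2 ratios ran from -2.51 to 0.90 with a median of -0.25 (0.840 times the centre), and 21 of the 23 (91.3%) lay within 2-fold of the centre. The 35 members of the other windows had a median of 0.78 (1.71 times) and a range from -2.55 to 3.24, and 17 (48.6%) lay within 2-fold. Depth differed too, with a median of 19 counted barcodes in this window and 6 in the other windows. Over all elements, 70.0% of those with at least 20 barcodes lay within 2-fold, against 57.3% of all. Whether the values lay close together because of depth was not tested. In single libraries the median of this window minus that of the other members was -1.04, -1.60 and -1.16 on the log2 scale (mean -1.27 ± 0.30, SD, n = 3), so it was below in each of the 3 RNA libraries. Pooled over elements, RNA over DNA was 0.896 ± 0.0119 times the centre in this window, against 1.99 ± 0.149 times in the other windows together (SD, n = 3). On the same pooled measure other chromosome 19 elements were at 1.89 ± 0.0248 times and all elements at 1.67 ± 0.0243 times. No p is given, because elements are not replicates and the windows were compared after their values were seen.

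The low level of the 19.7 to 24.5 Mb window was seen in its single plasmids. Barcodes with at least 5 RNA counts made up 15.1% ± 0.594 (SD, n = 3) of its 514 barcodes, against 29.7% ± 1.39 of the 299 barcodes in the other windows. Over all elements the share was 22.7% ± 0.634. A barcode was seen in only 1 RNA library in 43.4% of cases in this window and in 37.5% over all elements. Plasmid DNA counts per barcode were close, at 31.9 in this window and 31.3 in the other windows.

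The same window was the best represented in the plasmid library. Its members had a median of 19 counted barcodes and 39 paired barcodes, against 6 and 14 in the other windows, 6 and 14.5 among other chromosome 19 elements and 6 and 16 over all elements. At least 20 barcodes were counted for 11 of its 23 members (47.8%), against 3 of 35 (8.57%) in the other windows, 14 of 148 (9.46%) among other chromosome 19 elements and 12.5% of all elements. All 23 elements that were paired with a barcode there were also counted. In the window starting at 52.3 Mb, 3 of 8 paired elements were counted, and the 5 left out had 1 to 4 paired barcodes.

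The members with the most barcodes in this window had small SEs. chr19:21688319-21688516 had 61 barcodes, the most of any member, and stood at 1.13, 1.59 and 1.61 times the centre from 242, 326 and 355 RNA counts against 1839 in the DNA (log2 0.53 ± 0.32, SE; adjusted p 0.556, edgeR). limma-voom called it above the centre, with an adjusted p of 0.0246 at a log2 ratio of 0.51. chr19:21950285-21950482 had 51 barcodes and stood at 0.502, 0.599 and 0.626 times, from 127, 145 and 163 RNA counts against 2169 in the DNA. All 3 of its libraries lay below the centre, with a log2 ratio of -0.80 ± 0.36 (SE) and an unadjusted p of 0.0319 (edgeR; adjusted 0.252). It was the 1 member below the centre at an unadjusted p under 0.05. limma-voom gave it an adjusted p of 0.00808 at a log2 ratio of -0.80.

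Among the 14 members with at least 20 barcodes, log2 ratios ran from -0.94 to 1.39, which is 0.520 to 2.62 times the centre. Of these 14, 11 lay in the 19.7 to 24.5 Mb window, so their values mostly describe that window. edgeR called only chr19:9731806-9732003 among them, against 4 of the 14 other chromosome 19 elements with that many barcodes and 22.0% of 423 such elements overall. Of these 14 members DESeq2 called 1 above, and limma-voom 3 above and 1 below. The lowest log2 ratio that edgeR called in that class was 0.97. With 2 to 4 barcodes, edgeR called 0 of 15 members and 3.38% of 1155 elements, and the lowest called log2 ratio was 2.25. DESeq2 called 1 of these 15 above, and limma-voom 1 above and 1 below. For DESeq2 and limma-voom, calls among all elements of either barcode class were not counted. Their member counts by class therefore have no background beside them. chr19:58816651-58816848, with 3 barcodes, was at 7.44, 5.58 and 3.69 times and was not called (log2 2.47 ± 1.25, SE; adjusted p 0.357, edgeR). It was singled out after its values were seen.

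The low end was spread over several windows. chr19:12662185-12662382, whose barcodes are printed above, was at 0.366, 0.109 and 0.0508 times the centre (log2 -2.50 ± 1.75, SE; adjusted p 0.659, edgeR). limma-voom called it below the centre, at log2 -2.65 with an adjusted p of 0.0294. chr19:57351998-57352195 in the last window had 16 barcodes and stood at 0.195, 0.565 and 0.394 times from 13, 36 and 27 RNA counts against 571 in the DNA (log2 -1.38 ± 0.92, SE; adjusted p 0.636, edgeR). All 3 of its libraries were below the centre. chr19:20959016-20959213 was at 0.621, 0.156 and 0.410 times on 8 barcodes, with 62.5% of its RNA counts on 1 barcode. The only member of the window starting at 2.8 Mb, chr19:2841386-2841583, was at 0.709, 0.677 and 0.0899 times on 6 barcodes, with replicate 3 far below the other two.

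None of the remaining low members by the naming rule was called by edgeR. chr19:58427831-58428028 was at 0.918, 0.183 and 0.425 times the centre, and chr19:23456926-23457123, with 21 barcodes, was at 0.614, 0.654 and 0.293 times (log2 -0.94 ± 0.71, SE; adjusted p 0.712, edgeR). chr19:21203362-21203559 had 0, 25 and 18 RNA counts against 220 in the DNA. Its 0 in replicate 1 allows a ratio of up to 0.117 (3 counts, counting error only), while replicates 2 and 3 stood at 1.02 and 0.681 times. The libraries of this element did not agree on its level at this depth.

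The members with the most barcodes in another 3 windows were not called. chr19:12175463-12175660 was at 2.30, 2.94 and 0.497 times the centre on 7 barcodes, so replicate 3 fell on the other side of the centre (log2 0.93 ± 1.00, SE; adjusted p 0.872, edgeR). chr19:37498684-37498881 was at 1.30, 1.13 and 1.10 times on 27 barcodes, with little spread. chr19:53400801-53400998 was at 1.34, 2.10 and 0.670 times on 25 barcodes. The last 2 lie in the windows that hold the strongest calls, so members of 1 window differed widely in level.

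The last window, from 56 to 58.85 Mb, had 13 members with a median of 4 barcodes. Its median log2 ratio was 0.73, with 9 members above the centre and 4 below. edgeR called 0, also at an unadjusted p under 0.05, while DESeq2 and limma-voom each called 1 above. Depth was low in this window, where the median SE of a log2 ratio was 1.25, against 0.67 in the 19.7 to 24.5 Mb window. A further 4 elements in the window were paired with 1 to 7 barcodes and were not counted.

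Agreement between RNA libraries over the members was moderate. Pearson's r of log2 RNA over DNA was 0.484 for replicates 1 and 2, 0.600 for 1 and 3, and 0.762 for 2 and 3, as a description over 58 elements that share 1 DNA library. Over all elements the mean r was 0.526. Within the 19.7 to 24.5 Mb window r was -0.05, 0.15 and 0.58 over 23 elements, so replicate 1 correlated little with the others there. Some members of this window had few RNA counts in a library, such as 0, 25 and 18 at 21203362. Correlation by depth inside this window was not computed. Over the 35 members of the other windows r was 0.625, 0.697 and 0.784. The median SD of a member's log2 ratio between the 3 libraries was 0.52, against 0.81 for other chromosome 19 elements, which had fewer barcodes. With at least 20 barcodes, 14 elements each, it was 0.33 for members and 0.30 for the others, and the mean r was 0.729 for members and 0.920 for the others.

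The members stood apart from one another along the chromosome. Only 1 of the 58 (1.72%), chr19:57791260-57791457, had another barcode-paired element within 1000 bp, against 31 of the 148 other chromosome 19 elements (20.9%) and 28.9% of all elements. No 2 members overlapped by at least 50 bp. The median distance to the nearest paired element was 70.2 kb for members and 46.3 kb for other chromosome 19 elements. With isolated elements only, 57 members against 117 others, the difference of median log2 ratios was -0.01.

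Elements just outside the window edges were high at some edges and not at others. At the 19.7 Mb edge, the first member inside, starting at 19843795, had a log2 ratio of 0.27 ± 0.53 (SE), while the element starting at 19626953, outside by 72.9 kb, had 2.88 ± 0.83. At the 58.85 Mb edge, the last member inside, starting at 58838171, had 0.83 ± 0.92, and the next element outside, at 48.6 kb and starting at 58898551, had 2.25 ± 0.50. The 4 outside elements nearest to an edge, between 21.6 and 41.8 kb away, started at 12721485, 55972902, 11669948 and 54041711 and had log2 ratios of -0.28, -0.74, 1.08 and -0.02. Windows widened by 0.1 Mb on each side held 68 elements, of which 8 were called above the centre, and the median log2 ratio of these 68 minus that of the others was -0.00017.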

How the data were processed

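Raw barcode counts of the plasmid DNA and the 3 RNA libraries were deposited by the authors, beside a list that assigns barcodes to elements. The count table was already filtered, as its deposited name says, by a rule not given in the sources used here. As its values show, no barcode has under 10 plasmid DNA counts or lacks RNA counts in all libraries, and no element has under 2 barcodes. Coordinates are hg19 per the submitters' processing notes, with starts counted from 1.

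Groups came from the sample titles. Counts were summed per element and tested across all 3378 elements with edgeR 4.0.16 (R 4.3.3), RNA against plasmid DNA, with TMM and Benjamini-Hochberg adjustment. TMM factors were 0.876, 0.895 and 0.870 for the RNA libraries and 1.47 for the DNA. The SE is the absolute log2 ratio over the square root of F. Ratios per library in correlations and differences of medians used a pseudocount of 0.5 counts. DESeq2 1.42.0 and limma 3.58.1 were alternatives. Tables used Python 3.11.15. The test was tested on simulated data for 3378 elements: it called 41 of 50 elements raised 8-fold, 19 of 50 raised 4-fold, 0 of 50 raised 2-fold, 0 of 50 lowered to 0.25-fold and 0 of 3178 unchanged.

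The labels call the replicates biological, so p-values measure the spread between electroporations of 1 plasmid library. The SE comes from the edgeR fit, and the SD is that between RNA libraries. The upper limit given for an element without RNA counts in a library covers counting error only. It leaves out that PCR reads are not independent molecules. Named members are those called, the 8 highest and 8 lowest log2 ratios among members with at least 5 barcodes, and the member with the most barcodes in each window. The members, windows and lists were chosen with earlier results of these data known.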

Additional observations from a re-analysis of the deposited data

How the results depend on the processing

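Of the 58 members, 5 were above the centre and 0 below. Above the centre were 3 with library totals in place of TMM, 2 where RNA counts of 1 to 4 were taken as 0, 8 with DESeq2, 11 with limma-voom and 8 with windows widened by 0.1 Mb. Below it were 2 with library totals, 1 with low RNA counts set to 0 and 3 with limma-voom. Over all elements the main setting called 300 above and 0 below, and DESeq2 419 and 0. Library totals called 169 above and 50 below over all elements, low counts set to 0 called 115 and 7, and limma-voom 511 and 136. limma-voom moved the median of all elements by -0.29 on the log2 scale. Leaving out 1 RNA replicate gave 3 to 5 members above and 0 below. Without replicate 2 or replicate 3 it was 3 above. Calls above over all elements also fell, to 289, 193 and 218 without replicates 1, 2 and 3. The median log2 difference between members and other chromosome 19 elements was 0.05, between -0.15 and 0.080 with 1 RNA replicate left out (-0.15 without replicate 2), and 0.58 for members outside the 19.7 to 24.5 Mb window, a setting chosen after seeing the data, as was that of isolated elements. Library totals moved the median of all elements by -0.73 and low counts set to 0 by -0.82. With these, 3 uncalled named members changed sign against the centre, to -0.21, -0.50 and -0.28 (library totals) and -0.20, -0.52 and -0.30 (low counts set to 0) at 21688319, 37498684 and 53400801. Their log2 ratios of 0.53, 0.24 and 0.45 were smaller than those shifts of all elements. Of 175 repeats over 20 named members, 146 kept direction and side of the threshold, 12 gained a call, 11 lost one and these 6 changed sign. The cause of the gained and lost calls was not tested. No paired analysis was possible because the plasmid DNA group has 1 library. Depth limits the members with few barcodes most.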
